A study of Drosophila melanogaster with 2 samples.

Results

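Altogether, 10 genes of the Drosophila eggshell were examined for peaks of the transcription factor Ovo, and they fall into 3 genes expressed in the germline and 7 expressed in follicle cells, of 13945 annotated protein-coding genes. The germline genes were fs(1)N, fs(1)M3 and clos. The follicle cell genes were psd, Vm26Aa, Vm34Ca, dec-1, Cp36, Cp38 and Cp15. The genes are a fixed list of names that was selected on the presence or absence of peaks in these same data, so their peak counts and ranks are given as a description with no test. The grouping into germline and follicle cells comes from textbook knowledge of where each gene is expressed and was not measured in these samples.

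The data came from chromatin immunoprecipitation followed by sequencing (ChIP-seq), in which protein bound to sheared chromatin is recovered with an antibody and the attached DNA is sequenced. The material was whole adult Drosophila melanogaster females, of unknown age per the labels, from 1 transgenic line that stably expresses Ovo with green fluorescent protein (GFP) at its C terminus. Both biological replicates, numbered 1 and 4, were precipitated with an antibody against GFP after sonication to 200 to 800 bp, and they form 1 group. There is no untagged group in what was analysed, and because whole flies were used, a peak cannot be placed in a tissue: fewer cells carrying a bound site and weaker binding per cell cannot be told apart.

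Peaks were taken from 4 lists on the genome build dm6. The thresholded list holds 4477 peaks that the authors kept after comparing both replicates, and the relaxed lists of replicate 1, replicate 4 and the pooled reads hold 30000 peaks each, background included. A peak was assigned to a gene when its summit, the deposited position of highest signal, lay within 500 bp of a transcription start site (TSS). Each peak carries a score that is the authors' own value, and the score and the rank made from it (1 is the highest score) describe peaks within a list only. The thresholded list merges the replicates, so its values carry no SD, and the pooled list holds the reads of both replicates, so it is no further measurement beside them. Read counts were not part of the files, and the sequencing depth behind each score is unknown.

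The 3 germline genes are long and split by introns. On dm6, fs(1)N lies on X from 1322513 to 1329438 on the plus strand (6926 bp, 6 introns), fs(1)M3 on X from 5958207 to 5964247 on the minus strand (6041 bp, 6 introns), and clos on 2R from 9587953 to 9599732 on the minus strand (11780 bp, 12 introns). Most follicle cell genes are short: their lengths run from 491 bp for Vm34Ca through a median of 1205 bp to 6062 bp for dec-1, and the median of all 13945 protein-coding genes was 2166 bp. On 2L, psd spans 5963087 to 5964951, Vm26Aa 5959596 to 5960340 and Vm34Ca 13411141 to 13411631, all on the minus strand. On X, dec-1 spans 7867161 to 7873222 on the minus strand, Cp36 8479319 to 8480523 on the plus strand and Cp38 8481837 to 8483311 on the plus strand. Cp15 lies on 3L from 8728481 to 8729066 on the plus strand.

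The eggshell is built around the growing oocyte in layers, the vitelline membrane innermost and the chorion outermost, and most of its proteins are secreted by the follicle cells that surround the germline cyst. Nasrat (fs(1)N), Polehole (fs(1)M3) and Closca (clos) are made by the germline instead, enter the vitelline membrane from the oocyte side, and are needed for the membrane to harden and to hold the cue for the ends of the embryo. Ovo binds DNA through zinc fingers and is required in the germline cells of females for oogenesis, with otu, a gene of early germ cell differentiation, among its known targets.

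Promoter sequences of fs(1)N, fs(1)M3 and 5 follicle cell genes are printed first, because the TSS summits of fs(1)N and fs(1)M3, and the chorion and TATA-box patterns described further on, lie within them. Those of clos, psd and dec-1 are not printed. Each run is 180 bases, 150 before the TSS and 30 from it, written 5′ to 3′ on the strand of the gene, from RefSeq's genome Release 6 (dm6). Capitals mark 4 patterns. The first is TAACNGT, the core described for the Ovo zinc fingers, on either strand. The second, on either strand, is its shorter variant TAACGG. The next is a hexamer known from insect chorion promoters and spelled TCACGT, on either strand. The last is the TATA-box pattern TATANA where it starts 40 to 20 bases before the TSS on the gene's own strand.
fs(1)N promoter, chrX:1322363-1322542, plus strand: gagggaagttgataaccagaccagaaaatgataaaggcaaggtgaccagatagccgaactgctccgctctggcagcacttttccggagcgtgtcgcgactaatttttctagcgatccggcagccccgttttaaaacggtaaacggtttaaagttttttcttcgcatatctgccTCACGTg
fs(1)M3 promoter, chrX:5964218-5964397, minus strand: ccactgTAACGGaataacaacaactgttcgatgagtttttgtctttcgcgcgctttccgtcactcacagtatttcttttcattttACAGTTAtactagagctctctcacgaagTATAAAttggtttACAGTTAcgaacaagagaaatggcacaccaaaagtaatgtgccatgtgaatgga
Vm26Aa promoter, chr2L:5960311-5960490, minus strand: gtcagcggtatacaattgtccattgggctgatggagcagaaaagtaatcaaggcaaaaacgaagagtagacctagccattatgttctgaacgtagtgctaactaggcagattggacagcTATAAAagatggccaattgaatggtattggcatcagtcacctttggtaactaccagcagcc
Vm34Ca promoter, chr2L:13411602-13411781, minus strand: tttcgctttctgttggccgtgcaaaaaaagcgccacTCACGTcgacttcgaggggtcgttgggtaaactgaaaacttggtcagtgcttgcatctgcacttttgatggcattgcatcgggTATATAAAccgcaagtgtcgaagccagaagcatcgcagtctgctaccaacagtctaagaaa
Cp36 promoter, chrX:8479169-8479348, plus strand: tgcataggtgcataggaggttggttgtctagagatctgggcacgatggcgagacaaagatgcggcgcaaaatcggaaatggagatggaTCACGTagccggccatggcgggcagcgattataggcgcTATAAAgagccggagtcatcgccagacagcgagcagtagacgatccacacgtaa
Cp38 promoter, chrX:8481687-8481866, plus strand: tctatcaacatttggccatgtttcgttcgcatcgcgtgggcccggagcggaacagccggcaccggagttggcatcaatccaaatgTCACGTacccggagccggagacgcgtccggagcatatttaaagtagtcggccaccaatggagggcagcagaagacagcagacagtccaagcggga
Cp15 promoter, chr3L:8728331-8728510, plus strand: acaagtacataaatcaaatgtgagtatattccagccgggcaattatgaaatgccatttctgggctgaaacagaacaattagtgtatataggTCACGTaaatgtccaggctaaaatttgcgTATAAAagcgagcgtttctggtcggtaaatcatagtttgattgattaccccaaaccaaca

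A further pair of sequences is printed because these are the places near germline eggshell genes where a thresholded summit lies within 50 bp of the Ovo core. Each run is 101 bases centred on the pooled summit, on the strand of the eggshell gene, with TAACNGT on either strand in capitals. In the second run a match on each strand overlaps the other.
fs(1)N upstream summit, chrX:1321835-1321935, plus strand: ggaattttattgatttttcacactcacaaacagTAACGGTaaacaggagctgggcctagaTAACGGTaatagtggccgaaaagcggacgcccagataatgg
fs(1)M3 upstream summit, chrX:5965585-5965685, minus strand: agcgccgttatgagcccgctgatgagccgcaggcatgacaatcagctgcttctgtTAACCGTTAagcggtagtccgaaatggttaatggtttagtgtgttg

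All 3 germline genes had a thresholded summit at the TSS, and 0 of the 7 follicle cell genes did. Among all 13945 protein-coding genes the share with such a summit was 23.5%. The list of genes was chosen by this outcome, so the contrast between the groups is not evidence of its own. Score, rank and closeness of the replicates are tied to the same outcome, because the thresholded list was made from replicate ranks. They are given for each gene as description only. The sections below also give summit positions, the summits outside the TSS windows, the sequences under them, and related genes.

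At fs(1)M3, whose product Polehole acts together with Nasrat and Closca, the summit lay 134 bp upstream of the TSS in the thresholded and pooled lists, with a score of 250.8 and rank 431. In replicate 1 the summit lay 129 bp upstream (score 125.7, rank 324), and in replicate 4 it lay 117 bp upstream (score 125.1, rank 628). This was the best-ranked TSS peak of the 10 genes in each list. No other gene had a TSS within 500 bp of it, and the nearest other start, that of Grip, was 2032 bp from the fs(1)M3 TSS.

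At fs(1)N, which encodes Nasrat, the thresholded and pooled summit lay 20 bp upstream of the TSS with a score of 170.2 and rank 1114. Replicate 1 placed it 49 bp upstream (score 81.94, rank 957) and replicate 4 placed it 20 bp upstream (score 93.24, rank 1202). The peak was shared: the TSS of DAAM, a formin gene that organises actin, lies 151 bp away on the opposite strand and 131 bp from the summit. From position alone the peak cannot be assigned to fs(1)N rather than DAAM.

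At clos, the weakest of the 3, the thresholded and pooled summit lay 12 bp upstream of the TSS with a score of 92.78 and rank 3251. Replicate 1 had it 26 bp upstream (score 48.51, rank 2587) and replicate 4 had it 5 bp upstream (score 42.23, rank 4571), which falls outside the 4477 best peaks of that replicate. The clos promoter also lies inside the span of CG1902, a gene transcribed in the opposite direction. Over all genes with a pooled summit at a TSS the median rank of the best one was 5586, with quartiles at 2273 and 12315, so fs(1)M3 and fs(1)N ranked above the best quartile of such genes and clos between that quartile and the median.

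**Figure D1:**
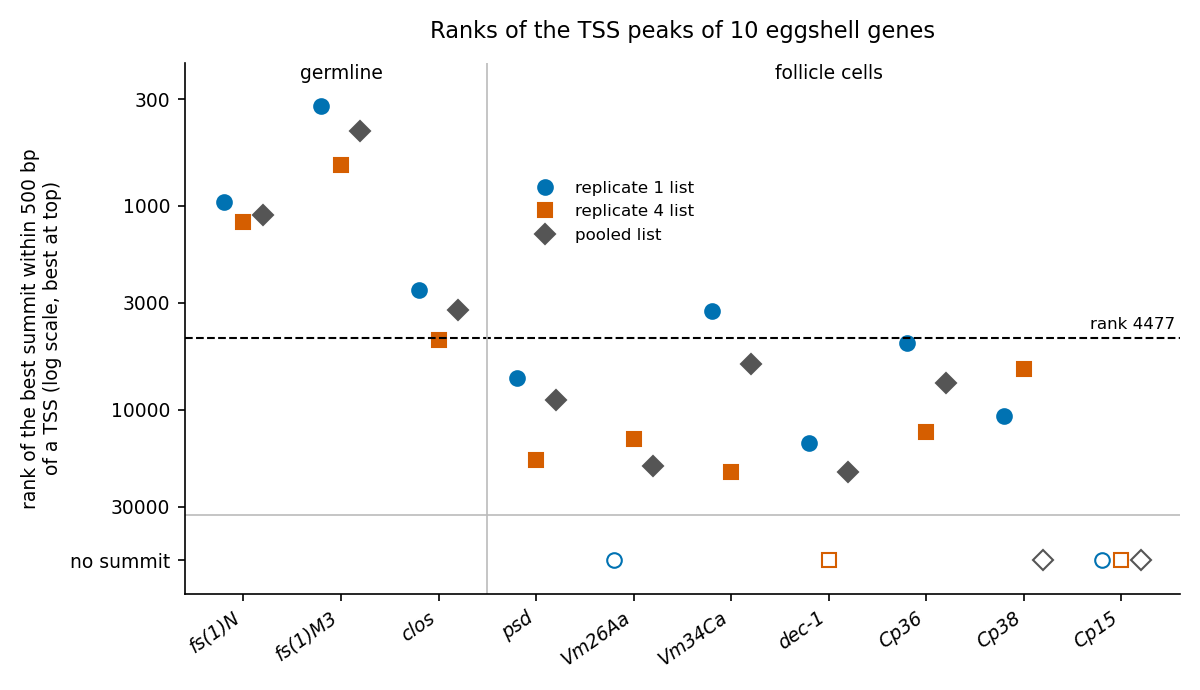
Rank of the best summit within 500 bp of a TSS (y axis, log scale, rank 1 at the top) for 10 eggshell genes (x axis), germline genes left and follicle cell genes right, in the lists of replicate 1 (circles), replicate 4 (squares) and the pooled reads (diamonds). The dashed line is rank 4477, open symbols in the bottom band stand for no summit in that window, and the germline genes lie at or above the line except for clos in replicate 4 (rank 4571).

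The summits at the starts of follicle cell genes lay outside the thresholded list. In the pooled list 3 of 3 germline genes and 5 of 7 follicle cell genes had one, where 54.8% of all genes did. In the list of replicate 1 the counts were again 3 of 3 and 5 of 7 (54.8% of all genes), and in the list of replicate 4 they were 3 of 3 and 5 of 7 (53.8% of all genes). The 5 follicle cell genes were not the same in the replicates: psd, Vm34Ca, Cp36 and Cp38 had a summit in both, dec-1 had one in replicate 1, Vm26Aa had one in replicate 4, and Cp15 had none. The share for the follicle cell genes is near that of all genes, so it says nothing particular about them.

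Among the vitelline membrane genes, Vm34Ca, a structural protein of the membrane, came closest to the threshold. Its pooled summit lay 126 bp upstream of the TSS with a score of 60.86 and rank 6001, below the lowest thresholded score of 74.87. Replicate 1 had it 107 bp upstream with a score of 42.21 and rank 3282, inside the 4477 best peaks of that replicate, whereas replicate 4 had a summit 10 bp upstream with a score of 15.94 and rank 20254. The replicates thus disagreed about this gene by a factor of 6.17 in rank. Of the 10 genes, the nearest inside the threshold was clos with its score of 92.78 and rank 3251, and the nearest outside it was Vm34Ca.

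Palisade (psd), needed for the vitelline membrane to form properly, had its pooled summit 25 bp upstream of the second of its 2 annotated starts, with a score of 44.82 and rank 8982. In replicate 1 the summit lay on that start (score 25.46, rank 6968), and in replicate 4 it lay 89 bp downstream of it (score 17.17, rank 17674). Vm26Aa, another structural vitelline membrane protein, had a pooled summit 224 bp upstream (score 27.56, rank 19009) and one 71 bp upstream in replicate 4 (score 19.59, rank 13937). Replicate 1 had no summit within 500 bp of Vm26Aa, so the peak was found in 1 replicate of the pair.

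The dec-1 gene, whose protein products are needed to assemble the inner chorion, had a pooled summit 438 bp upstream (score 26.62, rank 20335) and one 467 bp upstream in replicate 1 (score 15.78, rank 14676). Replicate 4 had none, and these positions lie close to the edge of the 500 bp window. An antisense non-coding gene, asRNA:CR43615, overlaps the dec-1 start.

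Cp36 and Cp38, major chorion proteins whose genes are neighbours on X, had weak summits near their starts. At Cp36 the pooled summit lay 119 bp downstream of the TSS (score 51.84, rank 7392), with replicate 1 at 118 bp downstream (score 33.12, rank 4736) and replicate 4 at 165 bp downstream (score 20.65, rank 12824). Cp38 had no pooled summit inside the window, its nearest lying 508 bp downstream of the TSS at rank 13802. In replicate 1 a summit lay 247 bp upstream of the Cp38 TSS (score 19.09, rank 10703), and in replicate 4 another lay 183 bp downstream (score 33.46, rank 6295), so the replicates pointed to different places.

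Cp15, a chorion protein gene of the 3L cluster, had no summit within 500 bp of its TSS in any of the 4 lists. The nearest pooled summit was 11708 bp away, at rank 7153 and 1282 bp from the TSS of Prm, a muscle gene.

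The -log10 q-value that the authors deposited with each peak was lower at weaker peaks but did not separate strong ones. At the related genes described further on it was 3.73 at both spz (pooled score 105.9) and dup (pooled score 260). In the pooled list it was 3.73 at fs(1)M3, 3.73 at fs(1)N and 2.77 at clos. It was 1.27 at Vm34Ca, 0.851 at Cp36, 0.585 at psd, 0.102 at Vm26Aa and 0.089 at dec-1. The value falls with the score, and the genes were chosen by the thresholded list, so this order of the groups was fixed by that choice.

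When each replicate was cut at its own 4477 best peaks, the germline genes kept their peaks with 1 exception and the follicle cell genes gained 1. In replicate 1 there were 3 of 3 germline genes and 1 of 7 follicle cell genes (Vm34Ca) with a TSS summit among these peaks, where 22.7% of all genes had one. In replicate 4 there were 2 of 3 germline genes (without clos) and 0 of 7 follicle cell genes, where 23.4% of all genes had one.

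The replicates also differed in how closely they placed a summit. The gap between the summit of replicate 1 and that of replicate 4 was 29 bp at fs(1)N, 12 bp at fs(1)M3 and 21 bp at clos. Among the follicle cell genes with a summit in both replicates it was 89 bp at psd, 97 bp at Vm34Ca, 47 bp at Cp36 and 430 bp at Cp38. Over all genes the median gap was 19 bp for the 3259 genes with a thresholded TSS summit and 48.5 bp for the 3006 genes without one, so wider gaps were common among genes outside the thresholded list. The larger rank divided by the smaller was 1.26 at fs(1)N, 1.94 at fs(1)M3 and 1.77 at clos. It was 2.54 at psd, 6.17 at Vm34Ca, 2.71 at Cp36 and 1.7 at Cp38, the last below fs(1)M3 and clos. The thresholded list was made by comparing replicate ranks and the genes were chosen by it. Closer ranks at the germline genes are thus partly built in, and the ratio over all genes was not computed.

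**Figure D2:**
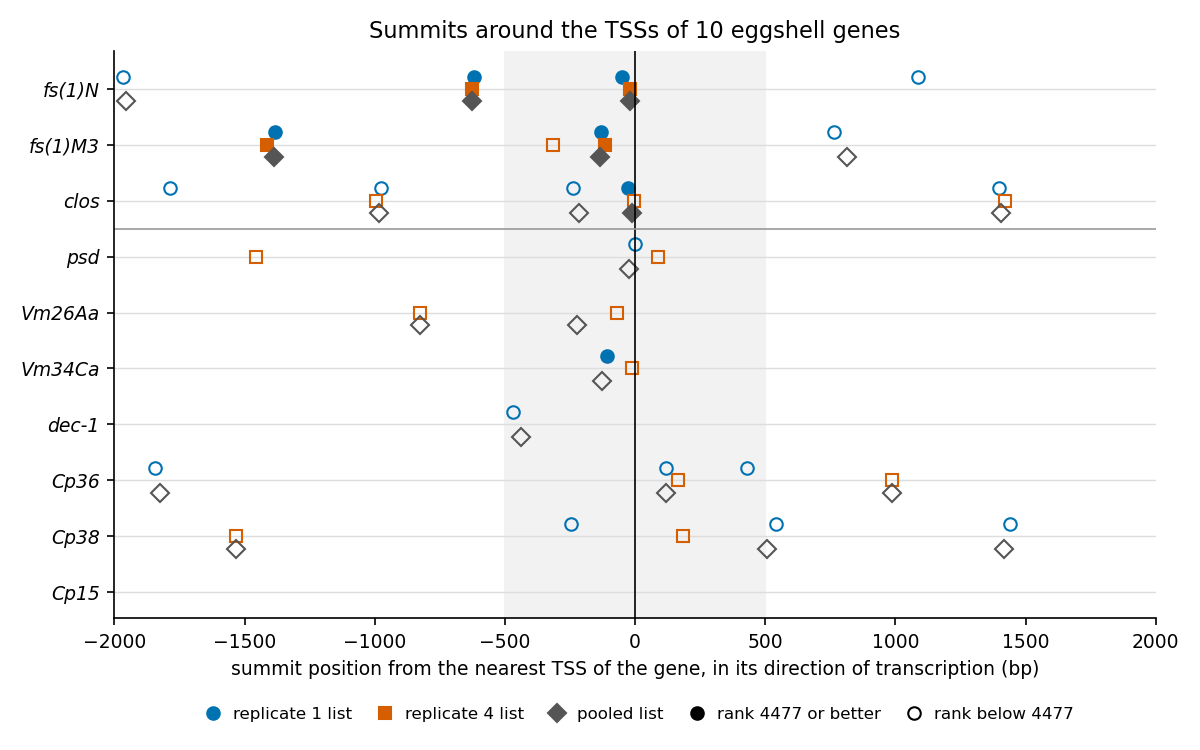
Position of every summit within 2 kb of a TSS (x axis, bp in the direction of transcription, upstream negative) for 10 eggshell genes, germline genes in the top 3 rows and follicle cell genes under them, in the lists of replicate 1 (circles), replicate 4 (squares) and the pooled reads (diamonds). Filled symbols rank 4477 or better in their list and the grey band is the 500 bp window: beside the TSS peaks, fs(1)N and fs(1)M3 each have a second filled group upstream, at 628 bp and 1388 bp in the pooled list, and Cp15 has no summit.

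Looking 2 kb to each side of the starts brought out a second strong peak at 2 of the 3 germline genes, a feature singled out after its values were seen. Upstream of fs(1)N a thresholded summit lay 628 bp from the TSS with a score of 132.7 and rank 1774. Replicate 1 had it 619 bp upstream (score 79.17, rank 1033) and replicate 4 had it 628 bp upstream (score 56.13, rank 2999). It lies in an intron of DAAM, 477 bp from the DAAM start. Upstream of fs(1)M3 a thresholded summit lay 1388 bp from the TSS with a score of 121.0 and rank 2099, in the stretch between fs(1)M3 and the divergent gene Grip and 644 bp from the Grip start. Replicate 1 had it 1382 bp upstream (score 62.41, rank 1636) and replicate 4 had it 1415 bp upstream (score 60.39, rank 2661). Both second peaks were thus among the 4477 best of each replicate, and both lay nearer to the start of the neighbouring gene than to that of the eggshell gene. Within 2 kb of the follicle cell genes the pooled list had no summit of rank 4477 or better. The share of all genes with such summits within 2 kb was not computed, so neither count can be called unusual.

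The second peaks differed from the TSS peaks in matches to the exact pattern TAACNGT. Around the second summit of fs(1)N, in the run printed for it, TAACNGT occurs on both sides of the summit, 11 bp and 10 bp from it, both times as TAACGGT. Around the second summit of fs(1)M3 it occurs 5 bp and 7 bp from the summit on the opposite strands, the pair overlapping within TAACCGTTA. Within 50 bp of the TSS summits of the 3 germline genes and of the follicle cell genes, in any list, TAACNGT had no match. The shorter TAACGG, whose letters also begin TAACGGT, did lie 5 bp from the pooled fs(1)M3 TSS summit. A TAACNGT match within 50 bp was present at 14.5% of the 4477 thresholded summits and at 13.7% of the 2851 of them near a TSS. Its absence at 3 promoters is thus what most promoter peaks show.

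The nearest thresholded summits of the follicle cell genes lay kilobases away and mostly at other genes. They were 9446 bp from psd (rank 948, nearest start Ucp4B), 11067 bp from Vm26Aa (rank 3006, CG9044), 3451 bp from Vm34Ca (rank 4474, CG42784), 15647 bp from dec-1 (rank 2828, Acat1) and 12853 bp from Cp15 (rank 3090, Prm). For Cp36 and Cp38 the nearest was 1 and the same peak, 10137 bp and 7619 bp from their starts, with a score of 121.6 and rank 2079. It lies 79 bp from a TSS of otu, the Ovo target named above. In replicate 4 its summit, 10049 bp from the Cp36 start (rank 2150), had CG33181 as the nearest start. From position alone the peak cannot be assigned to otu rather than CG33181. The peak nearest to Vm34Ca was almost the last of the thresholded list, with a score of 74.91. Such distances are not unusual. The stretch between the thresholded summits on either side of the TSS ran from 16.1 kb at Vm34Ca to 38.6 kb at Cp15, with dec-1 apart at 154.2 kb. The median over all genes was 50.80 kb.

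Inside the gene bodies, 1 of the 3 germline genes (clos) and 0 of the 7 follicle cell genes held a thresholded summit, where 13.0% of all genes did. The clos summit lay 9021 bp downstream of its TSS in an intron, with a score of 202.9 and rank 751, and it ranked 1342 in replicate 1 and 597 in replicate 4. That peak was stronger than the one at the clos promoter in all lists, but it lay 156 bp from the start of Map60, a microtubule-associated protein gene that sits wholly inside clos. In the pooled list 3 of 3 germline genes and 3 of 7 follicle cell genes (psd, Cp36 and Cp38) had a summit in the body, where 48.7% of all genes did. Of the 5 pooled summits in clos, 4 lay 11 to 221 bp from the starts of genes nested in or overlapping it, namely CG1827, Map60 and CG1902. The body summits of fs(1)N and fs(1)M3 in the pooled list were weak, with ranks 18182 for fs(1)N and 11280 and 29605 for fs(1)M3.

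Genes whose peaks ranked most like those of fs(1)N and fs(1)M3 were found by the summed absolute log2 rank ratio over replicates 1 and 4, among 3258 genes with a thresholded TSS summit. Nearest to fs(1)N were osk, which directs assembly of the germ plasm, with ranks 966 and 1218 (distance 0.033), and MEP-1, a zinc-finger partner of chromatin remodellers, with ranks 958 and 1243 (distance 0.050). Nearest to fs(1)M3 were Cp190, an insulator protein gene that despite its name has no part in the chorion, and CG4338, which share a peak of ranks 328 and 643 (distance 0.052). The measure uses peak rank alone.

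Among the letters of the promoters, searched on both strands from 250 bases before to 50 bases from the first TSS, the Ovo core was found in 1 of the 10. TAACNGT occurred in 1 of 3 germline promoters and 0 of 7 follicle cell promoters, and in 13.4% of all 13945 promoters. The promoter with it was that of fs(1)M3, with 2 matches whose first bases lie 65 and 24 bases before the TSS, both read as ACAGTTA on the strand of the gene, and 69 bp and 110 bp from the summit. The variant TAACGG occurred in 1 of 3 germline promoters (fs(1)M3, 5 bp from the summit) and 1 of 7 follicle cell promoters (Vm34Ca), and in 8.86% of all promoters. It shares letters with TAACNGT where the variable base is G, but at fs(1)M3 its match does not overlap either core match.

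TATANA was common everywhere: it occurred in 2 of 3 germline and 5 of 7 follicle cell promoters, and in 64% of all. Limited to the gene's own strand with its first base 40 to 20 bases before the TSS, a limit chosen after the matches were seen, it occurred in 1 of 3 germline promoters (fs(1)M3) and 4 of 7 follicle cell promoters (Vm26Aa, Vm34Ca, Cp36 and Cp15), and in 11% of all. The chorion hexamer TCACGT occurred in 1 of 3 germline promoters (fs(1)N, where it starts 24 bases into the transcript) and 4 of 7 follicle cell promoters, and in 6.76% of all. In the 3 chorion promoters it started 62 bases before the TSS at Cp36, 65 at Cp38 and 59 at Cp15, always on the gene's own strand. Only 39 of the 13945 promoters (0.28%) had TCACGT on that strand starting 70 to 50 bases before the TSS, again a limit chosen after the matches were seen.

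Of the remaining patterns, TCAGT, an initiator pattern, occurred in 0 of 3 germline and 3 of 7 follicle cell promoters, and in 51.5% of all. GAGAG, a pattern of the GAGA factor, occurred in 2 of 3 germline promoters (fs(1)M3 and clos) and 0 of 7 follicle cell promoters, and in 29.7% of all. TATCGATA, the DNA replication-related element, occurred in 0 of 3 and 0 of 7, and in 9.36% of all. The G and C content of the windows was 47.0% at fs(1)N, 36.3% at fs(1)M3 and 32.3% at clos, and it ran from 36.0% at psd to 58.7% at Cp38 among the follicle cell genes, with a median of 38.0% over all promoters. A match describes letters in these windows only, and no binding was measured at it.

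**Figure D3:**
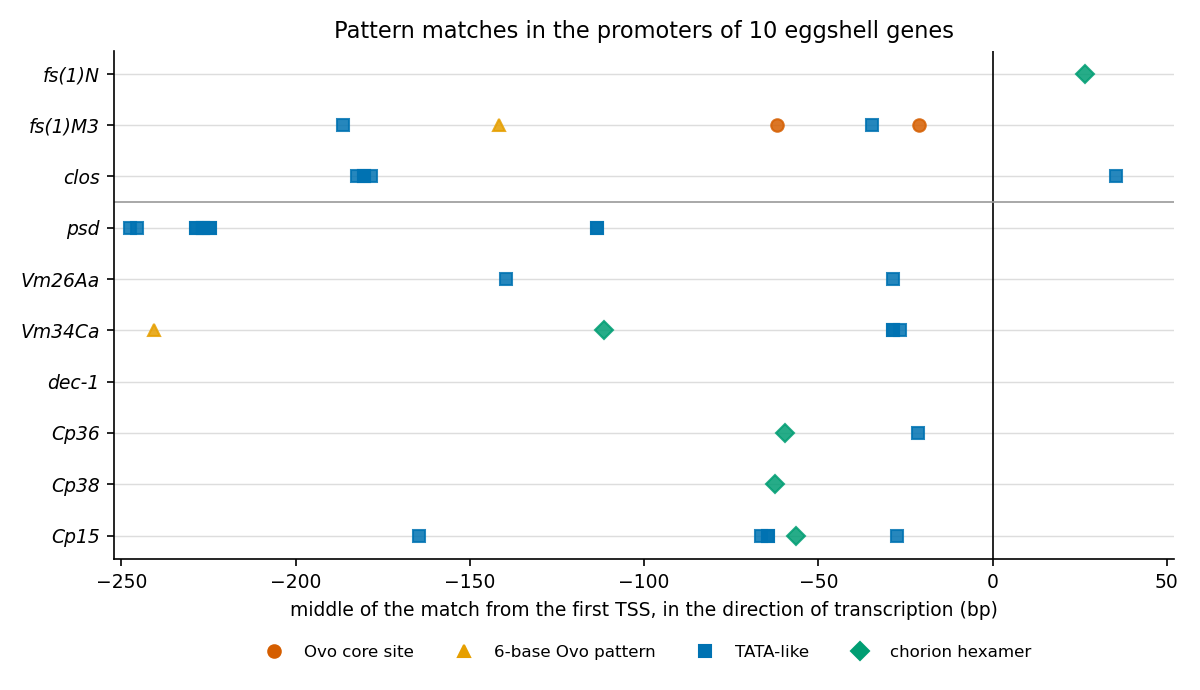
Pattern matches on either strand in the promoters of 10 eggshell genes, germline genes in the top 3 rows, with the middle of each match on the x axis (bp from the first TSS, upstream negative) and symbols for the Ovo core, its 6-base variant, the TATA-box pattern and the chorion hexamer. The Ovo core appears at fs(1)M3 alone, and the hexamers of Cp36, Cp38 and Cp15 line up, their first bases 65 to 59 before the TSS.

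The surroundings of the chorion genes were dense in summits in the relaxed lists. These clusters are known to be copied many times over in follicle cells before the chorion is made, and all relaxed lists were called against the same control alignment, per the text record that the authors deposited. Within 50 kb of the TSS there were 60 pooled summits at Cp36 and 61 at Cp38, more than around 99.4% and 99.5% of genes, and 53 at Cp15, more than around 97.2% of genes. The median over all genes was 30, with quartiles at 21 and 38. In replicate 1 the counts were 61, 63 and 51, and in replicate 4 they were 53, 53 and 55, all above the upper quartiles of 39 and 36. The density was not particular to the chorion clusters: among the related genes described further on, tor had 66 pooled summits within 50 kb, more than around 99.8% of genes and more than any of the chorion genes, and geminin and Mcm6 had 59 each. Of the other eggshell genes, the germline genes had 47 pooled summits at fs(1)N, 35 at fs(1)M3 and 36 at clos, and the follicle cell genes outside the chorion clusters had between 20 (dec-1) and 41 (psd and Vm26Aa).

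Within that dense region Cp15 itself sat in a gap. No pooled summit lay between 3L positions 8713841 and 8740189, a stretch of 26.3 kb, and the gap was 26.4 kb in replicate 1 and 26.2 kb in replicate 4. It held the starts of 9 protein-coding genes, among them all 4 chorion genes of the cluster (Cp15, Cp16, Cp18 and Cp19). A longer summit-free stretch surrounded 7.9% of genes in the pooled list, 7.9% in replicate 1 and 6.7% in replicate 4, and the median pooled stretch was 4.70 kb. The X cluster showed no such gap: the pooled stretch around Cp36 was 1.9 kb. The copy number of these regions in the precipitated and control DNA was not analysed here, and its part in the density of summits on X or in the gap on 3L was not tested.

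**Figure D4:**
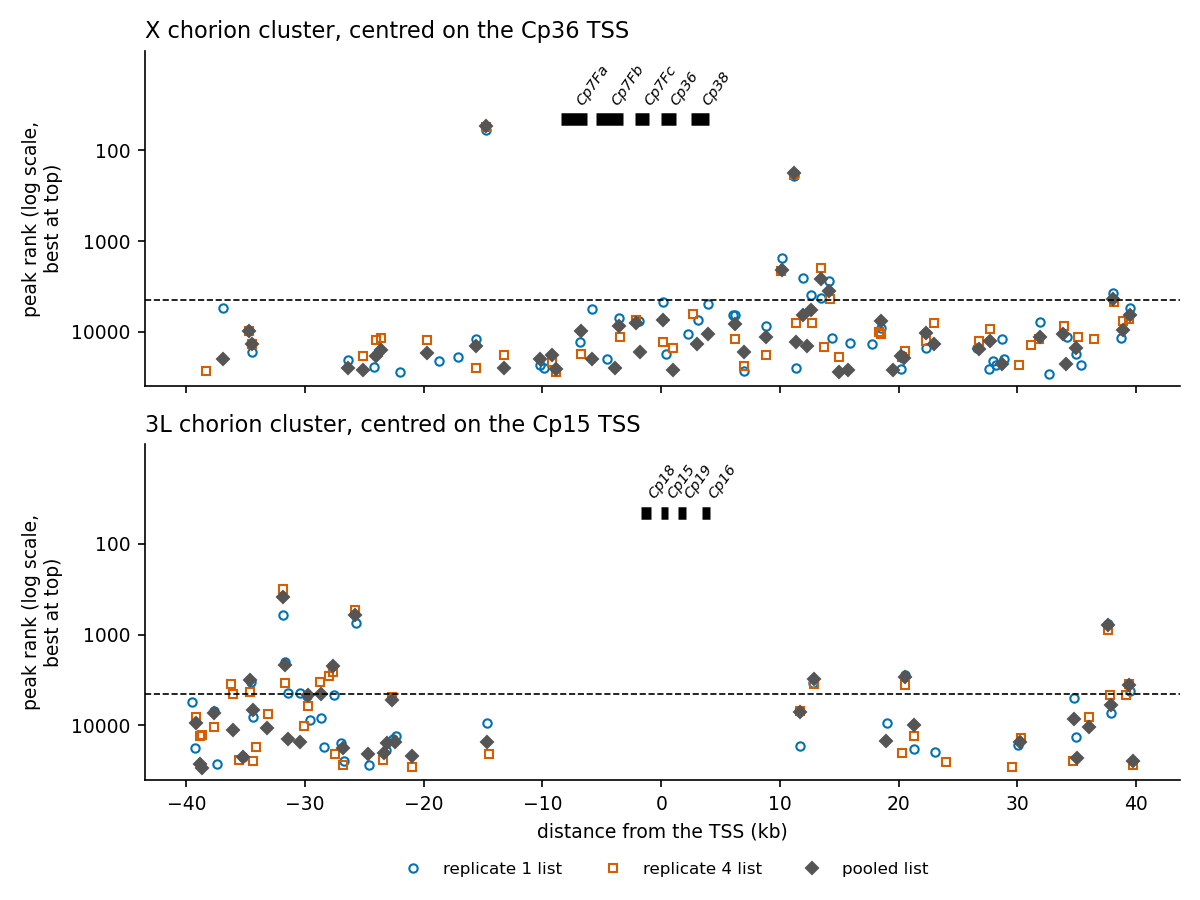
Rank of every summit within 40 kb (y axis, log scale, rank 1 at the top) against distance in kb from the Cp36 TSS (upper panel) and from the Cp15 TSS (lower panel), in the lists of replicate 1 (circles), replicate 4 (squares) and the pooled reads (diamonds). Black bars are chorion genes and the dashed line is rank 4477: weak summits run through the X cluster in all 3 lists, whereas the 3L cluster lies in a gap of 26.3 kb in the pooled list.

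Related genes from lists of eggshell and perivitelline proteins, none of them among the 10, were set beside them. Of 7 germline genes whose products act in the perivitelline space or on the oocyte membrane, 4 had a thresholded TSS summit (23.5% of all genes). Among them were snk, a protease of the dorsal-ventral cascade, with a summit 42 bp upstream (score 87.84, rank 3541) and the Ovo core within 50 bp of it, and ea, the next protease of that cascade, with a summit 349 bp upstream (score 109.3, rank 2523) that is shared with CG6236. The core lay within 50 bp of that merged ea summit but of none of the ea summits in replicate 1 or replicate 4, whereas at snk it did so in both replicates. The others were spz, the ligand that these proteases release, with a summit 216 bp upstream (score 105.9, rank 2640), and Tl, its receptor, with a summit 484 bp downstream (score 103.0, rank 2760). No core match lay within 50 bp of the spz and Tl summits in any list. The protease gene gd had weak TSS summits in the pooled list (rank 22202), replicate 1 (rank 20876) and replicate 4 (rank 14974). For the ligand and receptor of the terminal system the pooled list had none, but replicate 1 had trk summits of ranks 10586 and 12984 and replicate 4 had a tor summit of rank 9127.

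Of 18 follicle cell genes outside the 10, a thresholded TSS summit was found at 0 (23.5% of all genes), and a pooled one at 7 (54.8% of all genes). The 0 held for each list: 0 of 4 vitelline membrane genes, 0 of 6 chorion genes, 0 of 5 other eggshell genes of the follicle cells, and 0 of 3 follicle cell genes that pattern the embryo (ndl, pip and tsl). The strongest pooled summit of the 18 was at Pxt, a gene of the heme peroxidase family. It lay 353 bp downstream of the TSS with a score of 67.28 and rank 5209. The Ovo core lay within 50 bp of it and of both Pxt TSS summits in replicate 4, but not of that in replicate 1. Together with the 10 genes, 7 of 10 germline genes and 0 of 25 follicle cell genes had a thresholded TSS summit. The 10 genes were chosen by this outcome and the lists were drawn up with results of these data known. The sum is therefore a description of these names.

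**Figure D5:**
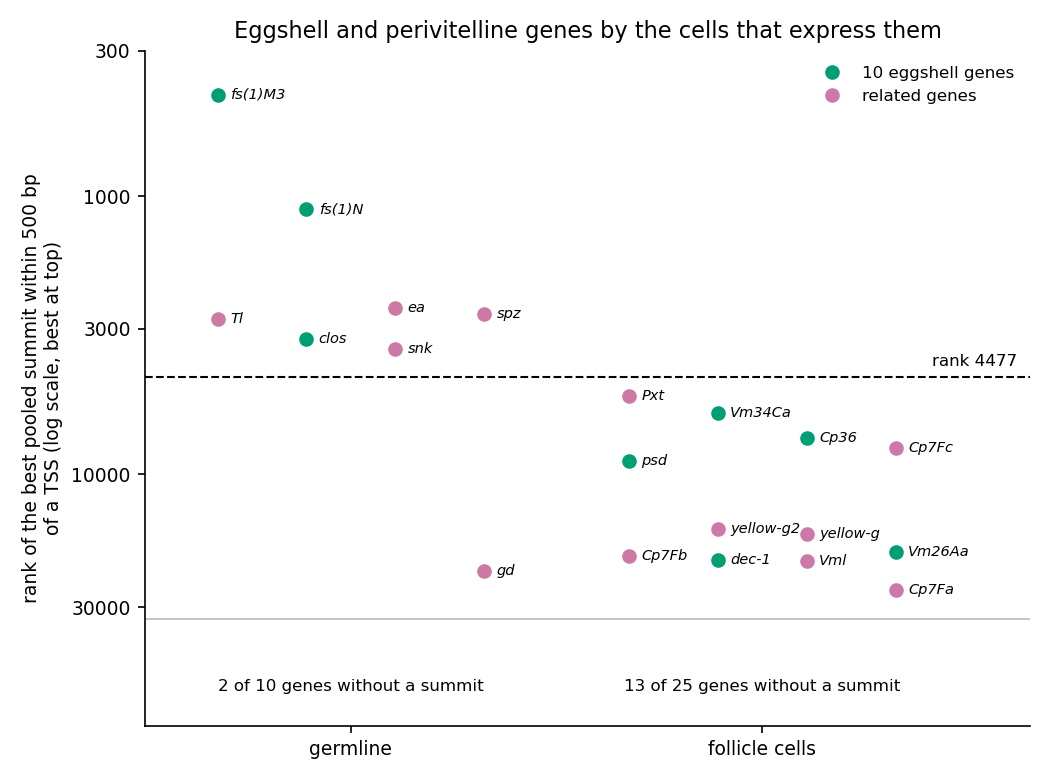
Rank of the best pooled summit within 500 bp of a TSS (y axis, log scale, rank 1 at the top) for germline genes (left) and follicle cell genes (right) of the eggshell and perivitelline space, with the 10 eggshell genes in green and the related genes in pink. Above the dashed line at rank 4477 stand 7 of 10 germline genes and 0 of 25 follicle cell genes, where 23.5% of all genes had a thresholded TSS summit. The genes in green were chosen by this outcome. No pooled summit lay in the window at 2 of the 10 germline and 13 of the 25 follicle cell genes. Horizontal spread within a group only separates the names.

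Genes for the machinery that amplifies the chorion clusters were the last list. It is not limited to follicle cells, since these proteins also replicate and regulate the genome elsewhere. Of 14 such genes, 6 had a thresholded TSS summit (23.5% of all genes), and 13 had a pooled one (54.8% of all genes). The highest score was 260.0 at dup, the Cdt1 replication licensing factor, on a peak shared with SRPK. E2f1, a cell cycle transcription factor, had 193.4, and chif, the Dbf4-type kinase subunit, had 185.4. The others were mip120 (125.9) and mip130 (112.3), subunits of the Myb complex, and Dp (114.1), the partner of E2f1. The mip130 peak is shared with Edem1 and the Dp peak with Fsn. The genes of the origin recognition complex (Orc1, Orc2, Orc5 and Orc6) had no thresholded TSS summit.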

How the data were processed

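ChIP-seq peak lists on dm6 were used as the authors deposited them; lists on dm3 were not used. Relaxed lists, per the deposited text record, hold peaks and background called against a control alignment, and the thresholded list comes from comparing replicate ranks (irreproducible discovery rate). Which caller was used, and with which limit, is not given in the sources used here. The authors' deposited score ranked peaks within a list. The deposited -log10 q-value was described only, and the deposited summit position placed each peak. Genes and 19607 TSSs came from the Ensembl release 115 annotation of 6 arms, and sequence from RefSeq Release 6, the files' build; dec-1 was matched as dec by synonym. Scripts ran in Python 3.11.15 and were tested on simulated data. Members and lists were chosen with earlier results of these data known, so no test was made. Named genes were the 10 members, related genes with a thresholded TSS summit, the 2 nearest in replicate ranks (those for clos are not reported here), and genes sharing or neighbouring a member's peak; Pxt, gd, trk, tor, geminin, Mcm6, the genes listed as having no thresholded summit and the second upstream peaks were named after their values were seen. Alternatives were other TSS windows, stricter and relaxed lists, each replicate alone and other overlap rules.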

Additional observations from a re-analysis of the deposited data

How the results depend on the processing

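With the 1000 peaks of highest score, a TSS summit was left at 1 of 3 germline eggshell genes, 0 of 7 germline perivitelline genes and 3 of 14 amplification genes, where 6.19% of all genes had one. With all pooled peaks there were 5 of 7 follicle cell eggshell genes, 7 of 18 related follicle cell genes and 13 of 14 amplification genes (54.8% of all genes), and gene bodies held a summit at 3 of 3 germline and 3 of 7 follicle cell genes (48.7%). A window of 100 bp left 2 of 3 germline eggshell genes (fs(1)N and clos, without fs(1)M3). It left 1 of 7 germline perivitelline genes (snk), where 11.7% of all genes had a summit. Adding 500 bp upstream to the gene body gave 3 of 3 germline genes (26.3% of all genes). The cause of these shifts is the construction of each alternative, which takes in fewer or more peaks or bases.

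Each replicate was left out in turn, and the remaining one was cut at 4477 peaks. That gave 2 to 3 germline eggshell genes, 0 to 1 follicle cell eggshell genes (Vm34Ca, without replicate 4) and 0 related follicle cell genes both times. It also gave 3 to 4 germline perivitelline genes and 7 to 8 amplification genes. Of all genes, 23.4% had such a TSS summit without replicate 1 and 22.7% without replicate 4. A summit in the gene body was found at 1 germline and 0 follicle cell genes both times. Of all genes, 12.7% had one without replicate 1 and 13.4% without replicate 4. The Ovo core, present in 1 of 3 germline promoters, was within 50 bp of 0 of their TSS summits. With any base of the peak counted in place of its summit, the germline and follicle cell counts were 3 and 0 (25% of all genes).

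No paired analysis was possible because both replicates form 1 group and no result comes from a test. Depth is unknown, so a missing summit means only that none was listed. With 2 replicates and no untagged sample, scores carry no error estimate.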
